A study of Mus musculus with 10 samples.

Results

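Among the ACA sites at which RNA cutting was measured in mouse embryoid bodies and stem cells with and without Mettl3, 1 site each lay in Eif4g1, Eif2s2, Eif2a, Rps6kb1 and Rps19bp1. Rps19bp1 encodes a protein that binds ribosomal protein S19, and the others are genes of translation initiation or the S6 kinase pathway. The 5 sites, of 1626 listed, were found by matching the deposited 11-base sequence and transcript position to annotated transcripts of these genes. The 5 genes had been chosen because earlier work on these values showed large differences between genotypes, so the differences between knockout and wild type given here are a description and support nothing by themselves.

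The labels describe 10 polyA RNA libraries. There were 2 from Mettl3 knockout (KO) embryoid bodies (EB), 2 from wild-type (WT) EB, 3 from KO embryonic stem cells (ESC) and 3 from WT ESC. The labels spell the KO genotype Metll3-/- and do not say how many clones it represents. All cells were expanded with LIF on inactivated feeder fibroblasts and then moved to gelatin in serum-free medium with LIF and the inhibitors CHIR99021 and PD0325901. EB, floating aggregates of differentiating stem cells, were then kept in suspension for 9 days without LIF or inhibitors. In the deposited table every site has at most 1 cleavage efficiency in each group, the fraction of RNA cut there, between 0 and 1. There is thus no spread between libraries, the reads behind a value are unknown, and no comparison could be tested. Each value averages over the RNA of all cells in a culture, so a different mixture of cells in EB and a different cutting within the same cells cannot be told apart. The table holds no expression values, and neither the absence of Mettl3 RNA nor the markers of ESC and EB could be checked.

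As background, Mettl3 encodes the catalytic part of the methyltransferase that converts A to N6-methyladenosine (m6A) in messenger RNA, mostly where a C follows. The bacterial RNase MazF cuts RNA before ACA and is blocked where the first A is methylated, so methylation is read as a low efficiency that becomes high without Mettl3. No label used here names the enzyme. Translation starts when the cap-binding complex eIF4F, built on the scaffold eIF4G1, brings messenger RNA to a small ribosomal subunit that carries the initiator tRNA delivered by eIF2. The kinase mTORC1 adjusts this step through S6 kinase and the eIF4E-binding proteins.

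The 5 sites are shown in their transcripts because they share more than the measured A. Each line holds 29 bases around the site, 5′ to 3′ on the RNA strand and written with T for U. The 5 capitals are the cut motif with the 2 bases before it, and the middle 11 bases are the deposited sequence, while the bases outside them come from the matched GENCODE M21 transcript.
Eif4g1: ctctattcctggGGACActatgacaacag
Eif2s2: ggagatttggctGGACAggttaccatcag
Eif2a: tatagccctcatGGACAtatattagtgct
Rps6kb1: ttggtcgaggagGGACAgaagagaatcag
Rps19bp1: ctgctatcccagGGACActggaacagagc

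All 5 sites were GGACA, as were 62.5% of the listed sites, the remainder being AGACA. All 5 also stood in the class that the table calls CellRep_high, which holds 771 sites (47.4%) and the basis of which no source used here gives. Sites that were both GGACA and high class made up 31.4% of the table. The Eif4g1 and Rps19bp1 sites shared a longer stretch, GGGACACT, which 20 of the listed sites (1.23%) contain. At both of them the next ACA followed 8 nt downstream, a spacing of 8 nt or less that was found at 7.85% of the 1440 matched sites with an exon junction. At Eif2s2 and Eif2a the next ACA lay 39 nt downstream, and at Rps6kb1 101 nt. The nearest ACA upstream was 57 to 124 nt away at the 5 sites. Each 29-base window occurred in the annotated transcripts of its own gene and of no other gene, whereas the 11 bases alone occurred in 34 to 109 genes. Chromosome, strand and transcript position were therefore needed for the match.

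Coordinates are given in build mm9, as deposited, and cover the 11 deposited bases. The Eif4g1 site was chr16:20679449-20679459 on the plus strand, in exon 9 of 32 of the matched transcript and in the coding sequence (CDS), at the second base of codon 289. The Eif2a site was chr3:58352476-58352486 on the plus strand, in exon 10 of 14 and in the CDS, at the third base of codon 326. The other 3 sites lay in the last exon of their transcripts and in the 3′ UTR. Eif2s2 was at chr2:154698406-154698416 on the minus strand, 53 nt after the end of the CDS. Rps19bp1 was at chr15:80091255-80091265 on the minus strand, 157 nt after it. Rps6kb1 was at chr11:86315241-86315251 on the minus strand, 984 nt after it. The site of Eif4g1 lay in the CDS of all 6 matching transcripts of the gene, always 169 nt from an exon junction.

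Both CDS sites lay in internal exons that are long, 813 nt in Eif4g1 and 572 nt in Eif2a. The exons of the 3′ UTR sites measured 1491 nt in Eif2s2, 4092 nt in Rps6kb1 and 516 nt in Rps19bp1. An exon of at least 516 nt was the place of 64.2% of all matched sites and of 85.0% of the high-class GGACA sites. The distance to the nearest exon junction was 167 nt in Eif2a, 169 nt in Eif4g1, 226 nt in Eif2s2, 301 nt in Rps19bp1 and 1219 nt in Rps6kb1. A distance of at least 167 nt was found at 57.9% of all matched sites and at 74.2% of the high-class GGACA sites. Most sites of the same class and motif thus reached these sizes too.

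The listed site was 1 of several possible ones in each transcript. The matched Rps6kb1 transcript held 124 ACA, 7 of them in GGACA, and that of Eif4g1 held 77 ACA with 8 in GGACA. Eif2a and Eif2s2 held 54 and 45 ACA, with 4 in GGACA each. Rps19bp1, a short transcript of 838 nt, held only 6 ACA, of which 2 were GGACA. No second site of any of the 5 genes was listed, and nothing is known here of the cutting at the others.

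**Figure D1:**
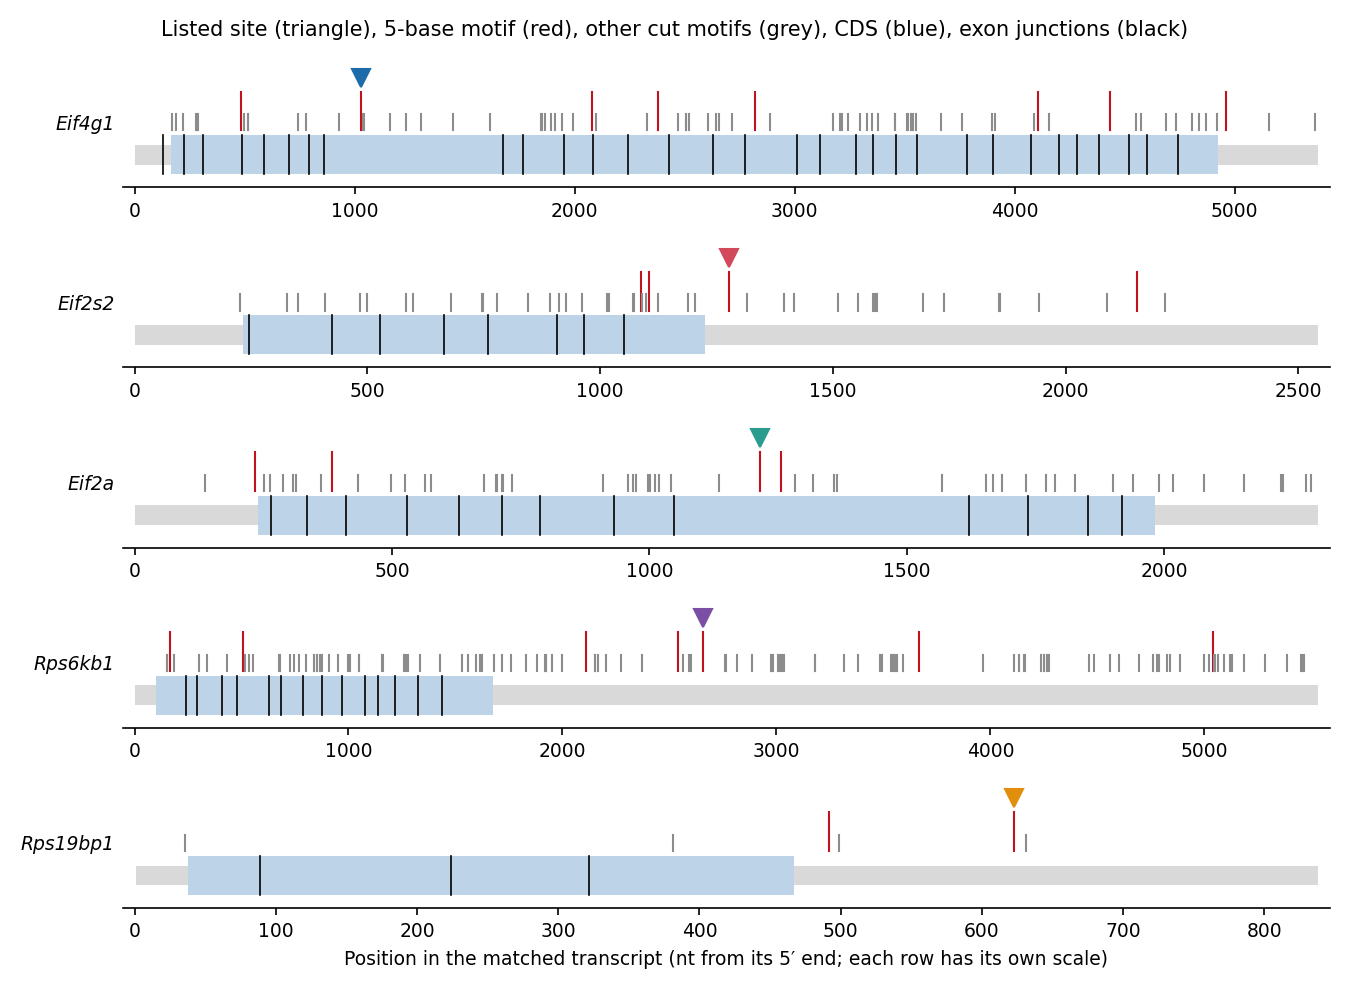
Matched transcripts of the 5 genes drawn to scale from the 5′ end in nt, each on its own scale, with the CDS as a blue box, exon junctions as black lines, GGACA as tall red ticks, every other ACA as short grey ticks and the listed site as a triangle. The listed sites of Eif2s2, Rps6kb1 and Rps19bp1 lie in the last exon after the CDS, and those of Eif4g1 and Eif2a lie in long internal exons of 813 and 572 nt.

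At all 5 sites most of the RNA was cut in KO cells, but Eif2a and Rps19bp1 lay below the KO medians of the table. Rps6kb1 has no EB KO value. The sites differed mainly in how far they were cut in WT cells. KO values ran from 0.719 to 0.975 in EB and from 0.727 to 0.966 in ESC, beside medians over all listed sites of 0.819 in EB KO and 0.811 in ESC KO. WT values ran from 0.0171 to 0.645 in EB and from 0.0526 to 0.445 in ESC, beside medians of 0.542 in EB WT and 0.437 in ESC WT. Eif2a, Rps19bp1 and Eif4g1 were little cut in WT, while Eif2s2 and Rps6kb1 were near the middle of the table.

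**Figure D2:**
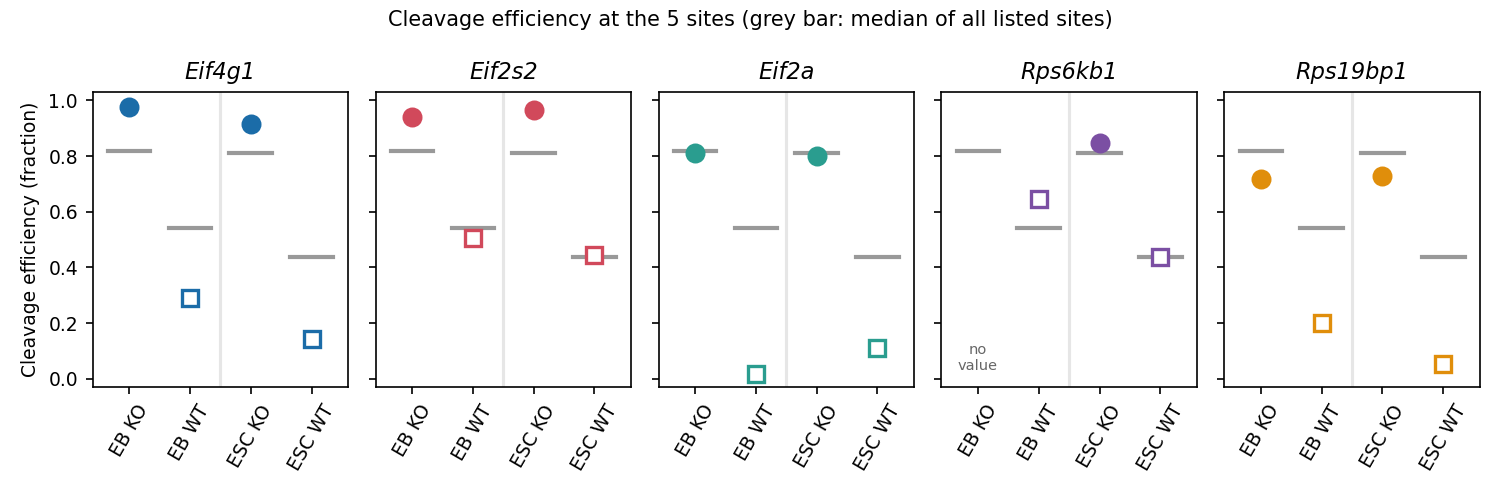
Cleavage efficiency (fraction) at the site of each gene in EB KO, EB WT, ESC KO and ESC WT, with filled circles for KO, open squares for WT and a grey bar at the median of all listed sites in that column. Every KO point lies above the WT point of its stage, WT values run from 0.0171 (Eif2a, EB) to 0.645 (Rps6kb1, EB), and Rps6kb1 has no EB KO value.

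Eif4g1 encodes the scaffold of eIF4F, which holds the cap-binding protein, the helicase eIF4A and poly(A)-binding protein together. Its site had an efficiency of 0.975 in EB KO, against 0.291 in EB WT. In ESC it was 0.915 in KO, against 0.144 in WT. The site was thus nearly always cut without Mettl3 and mostly uncut with it, at both stages. The KO minus WT difference was 0.685 in EB, which ranked 46 from the top among 855 sites, and 0.771 in ESC, which ranked 39 among 1046. WT efficiency amounted to 29.8% of KO efficiency in EB and to 15.7% in ESC.

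Eif2s2 encodes the beta subunit of eIF2, the factor that brings the initiator tRNA to the small ribosomal subunit. Its 3′ UTR site was at 0.941 in EB KO, against 0.506 in EB WT. In ESC it was at 0.966 in KO, against 0.445 in WT. About as much RNA was left uncut as was cut in WT cells of both stages. The differences were 0.434 in EB and 0.521 in ESC, and WT reached 53.8% of KO in EB and 46.1% in ESC. Its ESC KO value was high even among KO values, with 93.1% of the 1224 sites below it.

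Eif2a encodes eIF2A, a protein separate from eIF2 and its alpha subunit that can deliver initiator tRNA on a set of messenger RNAs. Its CDS site was at 0.8125 in EB KO, against 0.0171 in EB WT. In ESC it was at 0.8 in KO, against 0.112 in WT. Only 4.40% of the 1294 values in EB WT were lower. The difference of 0.795 in EB ranked 13 from the top among 855 sites, and that of 0.688 in ESC ranked 65 among 1046. WT efficiency was 2.10% of KO in EB and 13.99% in ESC, so the order of the stages was the opposite of that at Eif4g1, Eif2s2 and Rps19bp1.

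Rps6kb1 encodes S6 kinase 1, which phosphorylates ribosomal protein S6 and the initiation factor eIF4B downstream of mTORC1. Its 3′ UTR site was at 0.645 in EB WT, with no value in EB KO. In ESC it was at 0.848 in KO, against 0.4375 in WT. The ESC difference of 0.411 was the smallest of the 5 and ranked 239 among 1046 sites, and WT reached 51.6% of KO. No genotype difference can be given for EB.

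Rps19bp1 encodes a nucleolar protein that binds ribosomal protein S19 and is also known as an activator of the deacetylase Sirt1. Its 3′ UTR site was at 0.719 in EB KO, against 0.2 in EB WT. In ESC it was at 0.727 in KO, against 0.0526 in WT. KO values here were the lowest among the 5 sites, and 39.8% of the ESC KO values in the table were below 0.727. The differences were 0.519 in EB and 0.675 in ESC. As a share of KO, WT reached 27.8% in EB and 7.24% in ESC, the lowest share of the 5 in ESC.

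The order of the sites depended on the measure used. By KO minus WT in ESC the sites followed in the order Eif4g1, Eif2a, Rps19bp1, Eif2s2 and Rps6kb1. By the share of KO efficiency that WT retained, from low to high, Rps19bp1 came first, followed by Eif2a, Eif4g1, Eif2s2 and Rps6kb1. The gap between Eif2a and Rps19bp1 in the difference, 0.688 against 0.675, cannot be told from 0 without replicates. As a measure of size, 95% of the 845 sites with both values differed by no more than 0.166 between EB KO and ESC KO. All 9 KO minus WT differences at the 5 sites were larger than this as deposited, and 2 of them, Eif2s2 (0.147) and Rps6kb1 (0.0376) in ESC, were not once each column was centred on its median. The size of 0.166 refers to values as deposited, and Eif2s2 in EB passed it only narrowly after centring, at 0.168. It compares EB KO with ESC KO alone, so it is not the error of a WT value or of a KO minus WT difference.

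A difference of at least 0.10 in favour of KO was seen at 4 of 4 of these sites in EB and at 5 of 5 in ESC. Over the table it was seen at 41.9% of sites in EB and at 55.4% in ESC. All of them also reached 0.20, as did 31.5% of the table in EB and 39.7% in ESC. The sites were chosen on these values, so nothing is read from that contrast. Among the high-class GGACA sites, the median difference was 0.260 in EB (250 sites) and 0.352 in ESC (319 sites). In that population Eif4g1 ranked 26 in EB and 22 in ESC, Eif2a 7 and 38, Rps19bp1 65 and 45, and Eif2s2 90 and 103. Rps6kb1 ranked 141 in ESC. These values are not scaled. If the columns are first centred on their medians over the 759 complete sites, every KO minus WT difference shifts by −0.266 in EB and by −0.373 in ESC. Both shifts exceed the median KO minus WT difference over all sites, 0.0638 in EB and 0.130 in ESC. Most sites of the table thus fall below 0. All 5 sites were still above 0 after centring, with Eif4g1 at 0.418 in EB and 0.398 in ESC and Rps6kb1 at 0.0376 in ESC.

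Between EB and ESC, as deposited, the 4 sites with all values differed more in WT than in KO. With column medians subtracted the order turned at Eif4g1, at 0.0503 in WT and 0.0706 in KO, and on the logit scale it turned at Eif4g1 and Eif2s2. In KO the EB minus ESC difference was 0.0599 at Eif4g1, 0.0125 at Eif2a, −0.00852 at Rps19bp1 (0.00217 with column medians subtracted) and −0.0249 at Eif2s2. All 4 were smaller than 0.10, a size reached upward by 7.10% and downward by 11.1% of the table in this comparison. In WT, EB minus ESC was 0.208 at Rps6kb1, 0.147 at Rps19bp1, 0.147 at Eif4g1 and 0.0613 at Eif2s2, while it was −0.0948 at Eif2a. A value of at least 0.10 was thus present upward at 3 of 5 sites and downward at 0 of 5, beside 26.4% and 5.51% of the 1071 sites with both WT values. As deposited, Rps6kb1 alone passed 0.166. With column medians subtracted, which shifts each by −0.0963, Rps6kb1 was at 0.111 and no longer passed it, Eif2s2 turned to −0.0351, and Eif2a passed it at −0.191. On the logit scale the same size over the table was 1.40, which Eif2a (−1.98) and Rps19bp1 (1.504) passed and Rps6kb1 (0.849) did not. Near 0 a small change in the fraction moves the logit far. Eif2a in EB WT (0.0171) and Rps19bp1 in ESC WT (0.0526) lie there, and the depth behind them is unknown. Which WT site differed most between the stages thus depends on the scale.

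The KO minus WT difference was therefore smaller in EB than in ESC at 3 of 4 sites and larger at Eif2a. The difference of differences, EB minus ESC, was 0.107 at Eif2a, −0.0861 at Eif2s2, −0.0867 at Eif4g1 and −0.156 at Rps19bp1. As deposited, none of these 4 was larger than 0.166, and a difference of differences carries the error of 4 values. This depends on the scale: with column medians subtracted Eif2a passed 0.166 at 0.214, and on the logit scale Eif2a (2.06) and Rps19bp1 (−1.55) passed the matching size of 1.40. Both logit values rest on a WT fraction near 0, at 0.0171 for Eif2a in EB and 0.0526 for Rps19bp1 in ESC. Of the 759 complete sites, 32.0% were lower by at least 0.10 and 5.53% higher, with a median of −0.0446. The sign at Eif4g1 turned on a logit scale, and with column medians subtracted Eif4g1 and Eif2s2 turned to 0.0203 and 0.0209. Eif2a and Rps19bp1 kept their signs under both. At Eif2a a lower EB WT value and not a higher KO value made up most of the larger difference, as its KO values were 0.8125 in EB and 0.8 in ESC.

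**Figure D3:**
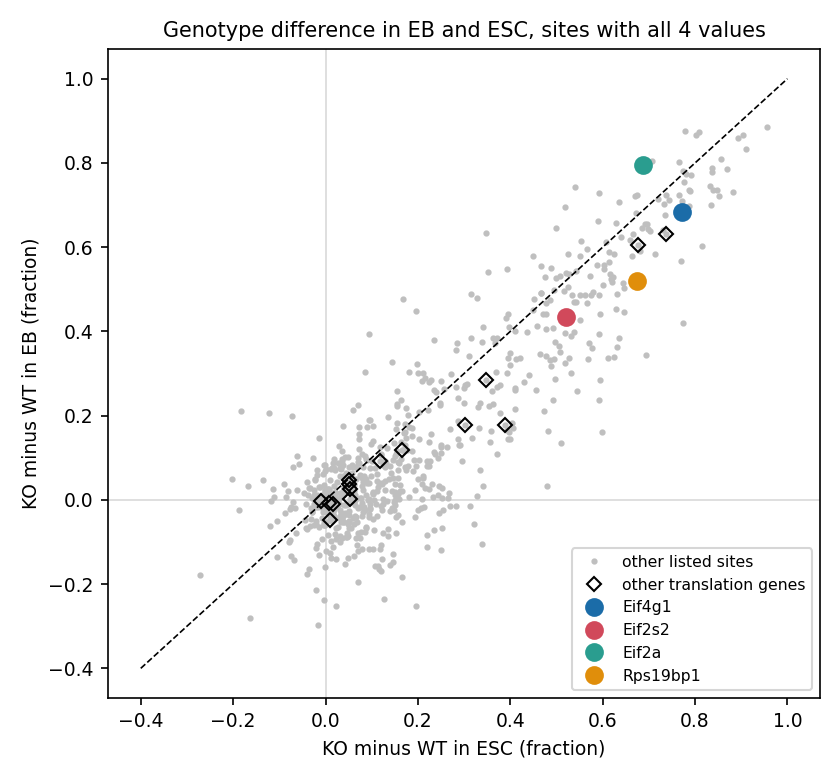
KO minus WT difference in cleavage efficiency (fraction) in ESC on the horizontal axis and in EB on the vertical axis for the 759 sites with all 4 values, with the members as coloured circles, other translation genes as open diamonds and a dashed line of equal values. Eif2a, at 0.795 in EB and 0.688 in ESC, lies above the line and Eif4g1, Eif2s2 and Rps19bp1 lie below it, although Eif4g1 and Eif2s2 change sides when column medians are subtracted.

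Sites with the most similar set of 4 values were found by the root mean square difference over the columns, among the sites with all 4 values. The closest to Eif4g1 was the CDS site of Eif1a, another initiation factor gene, at 0.0218. Eif1a stood at 0.948 in EB KO, against 0.316 in EB WT, and at 0.898 in ESC KO, against 0.160 in ESC WT. Cep57 followed at 0.0379, and the third site had no gene name. For Eif2s2 the closest were G3bp2 (0.0266), Dmac1 (0.0341) and Kdm5a (0.0352). For Eif2a they were Ipo9 (0.0402), Mga (0.0471) and a site with no gene name. For Rps19bp1 they were Nat10 (0.0318), Kifc1 (0.0400) and Uhrf2 (0.0470). All 12 were GGACA sites, as were 469 of the 759 sites with all 4 values. They were picked for values like those of GGACA members, so nothing is read from this count. Rps6kb1 lacks an EB KO value and was not compared in this way.

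The other genes of translation were taken from 4 lists, of initiation, TOR and S6 kinase signalling, elongation and termination, and the ribosome and its assembly. Of 279 genes in these lists, 24 had a listed site, with 25 sites in all. A KO minus WT difference of at least 0.10 was present at 10 of 19 sites in EB and at 14 of 23 in ESC, beside 41.9% and 55.4% of all sites. The medians were 0.118 in EB and 0.243 in ESC, beside 0.0638 and 0.130 over all sites. Without the 5 chosen sites the counts were 6 of 15 in EB and 9 of 18 in ESC, with medians of 0.0471 and 0.0860. The remaining translation genes were thus close to the table as a whole in both counts.

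The sites of initiation factor genes included some with large differences and others with almost none. Besides the chosen sites, Eif1a, whose product acts in scanning and start codon choice, was higher in KO by 0.632 in EB and 0.738 in ESC. Eif3a, the gene of a scaffold subunit of eIF3, was higher by 0.606 in EB and 0.676 in ESC, although its site did not pass the check of neighbouring sites used for gene names. Both differences were larger than those of Eif2s2. Eif2b1, a subunit of the exchange factor that reloads eIF2 with GTP, was higher by 0.284 in EB and 0.348 in ESC. Gigyf2, whose product partners a repressive cap-binding protein, had a 3′ UTR site 0.243 higher and a CDS site 0.110 lower in ESC KO, with no EB KO value at either. A difference of at least 0.10 downward was present at 5.96% of the table in EB and 2.58% in ESC. With column medians subtracted Eif2b1 in ESC and the 3′ UTR site of Gigyf2 fall below 0, as do most sites of the table. As deposited both lie above the ESC median of 0.130 over all sites.

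The initiation list also held 5 sites that differed by less than 0.10 between genotypes at both stages. The site of Eif4a1 had the lowest difference of the list in EB, and the others were named after their values were seen. Eif4a1, the helicase bound by eIF4G1, was at 0.969 in EB KO, against 0.975 in EB WT, and at 0.962 in ESC KO, against 0.955 in ESC WT. Eif5, which stimulates GTP hydrolysis by eIF2, had a 5′ UTR site that was almost never cut, at 0.00490 in EB KO, against 0.00852 in EB WT, and listed at 0 in ESC KO, against 0.00912 in ESC WT. Eif4ebp2, the gene of an eIF4E-binding protein that is like S6 kinase a target of mTORC1, differed by 0.00282 in EB and 0.0537 in ESC. Eif3c and Eif3l, subunits of eIF3, differed by 0.0251 and 0.0471 in EB and by 0.0540 and 0.0498 in ESC.

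Rps6kb1 was the only gene of the 26 in the TOR and S6 kinase list with a listed site. Of the elongation and termination genes, Eef1d differed by 0.0373 in EB and 0.0503 in ESC, and Pelo and Hbs1l had no KO minus WT value at either stage. In the ribosome list 8 of 173 genes had a site, and Rpl4 was the only 1 of them that encodes a cytosolic ribosomal protein. Its site was at 0.946 in EB KO, against 0.955 in EB WT, and at 0.943 in ESC KO, against 0.926 in ESC WT. Of the sites in genes of the large subunit of the mitochondrial ribosome, 2 of 3 in EB and 4 of 4 in ESC were higher in KO by at least 0.10, beside 41.9% and 55.4% of the table. Mrpl44 differed by 0.179 in EB and 0.388 in ESC, Mrpl33 by 0.118 and 0.166, Mrpl37 by 0.0913 and 0.118, and Mrpl55 by 0.249 in ESC. Of the assembly factor genes, Bysl differed by 0.177 in EB and 0.303 in ESC, and Pes1 by −0.0483 and 0.0103. With column medians subtracted only Mrpl44 in ESC stays above 0 among the mitochondrial genes and these assembly factors. Most sites of the table fall below 0 as well.

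**Figure D4:**
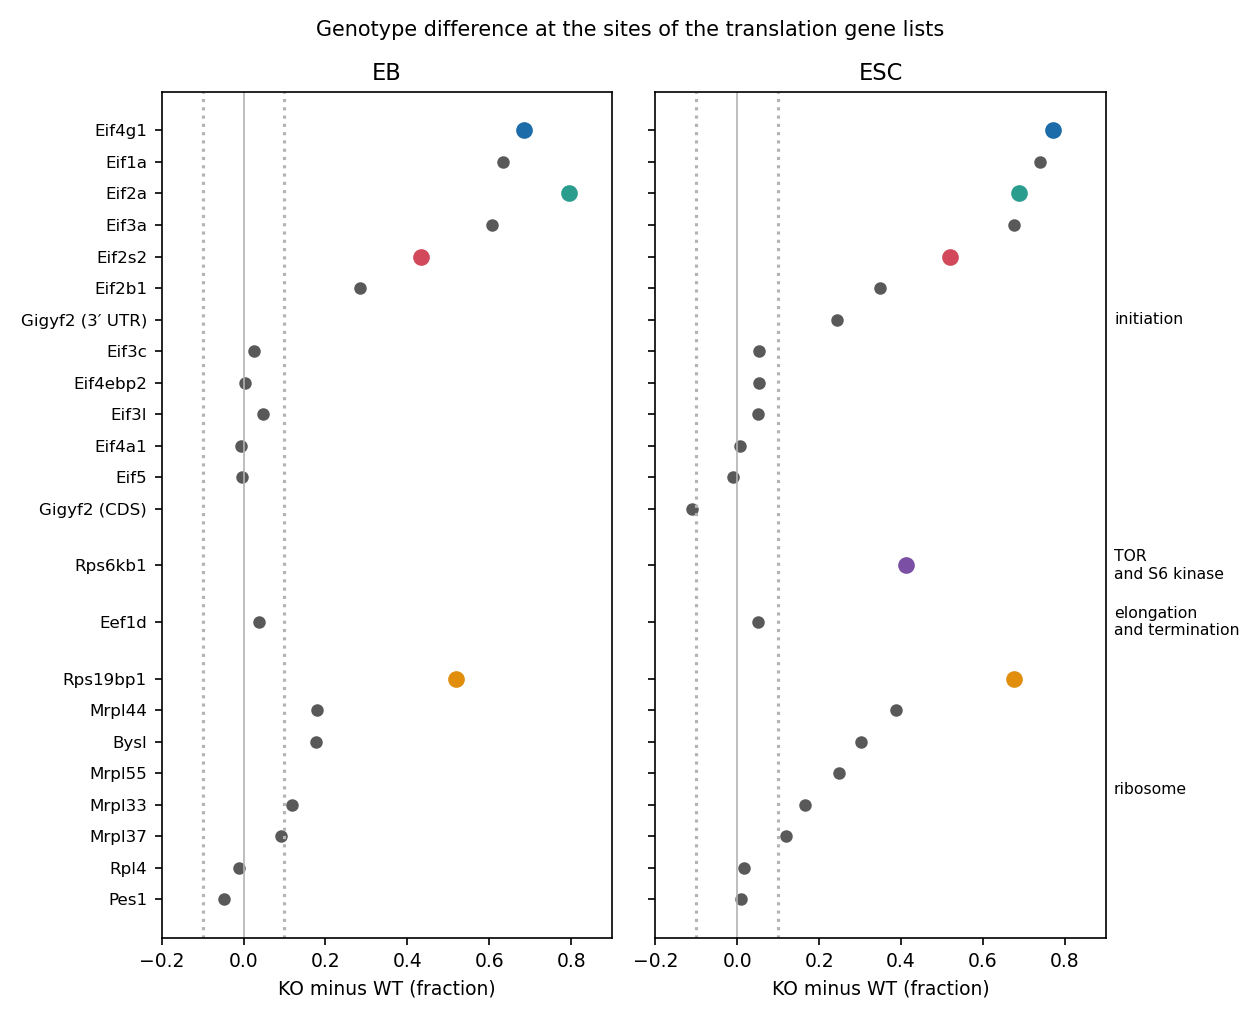
KO minus WT difference in cleavage efficiency (fraction) in EB on the left and ESC on the right for each site of the translation lists with a value, with members coloured and dotted lines at 0.10 in both directions. The 5 members and Eif1a and Eif3a form the right end in ESC with Mrpl44, from 0.388 to 0.771. Values are as deposited. Sites between 0 and the shift, 0.266 in EB and 0.373 in ESC, turn negative when column medians are subtracted. Most sites of the table are negative after that subtraction.

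The translation list sites nearer to and farther from an exon junction differed in how many were higher in KO. Of those nearer than 100 nt, 0 of 6 in EB and 0 of 7 in ESC were higher in KO by at least 0.10. These were the sites of Eif3c, Eif4a1, Eif5, Eef1d, Rpl4 and Pes1 and the CDS site of Gigyf2, which has no EB KO value. Of those at 100 nt or more, 10 of 13 in EB and 14 of 16 in ESC were higher by that size, or 6 of 9 and 9 of 11 without the chosen sites. The exceptions in ESC were Eif3l, at 110 nt, and Eif4ebp2, at 1032 nt. The same split over all matched sites gave 17.0% (259 sites) and 53.8% (504 sites) in EB, and 32.6% (301 sites) and 67.3% (624 sites) in ESC. The lists thus followed the direction of the table. Motif moves with distance in these lists. In ESC 3 of the 7 nearer sites were GGACA, against 8 of the 11 farther ones without the chosen sites. Over all matched sites with an ESC difference, 167 of 301 nearer and 406 of 624 farther sites were GGACA, a smaller contrast. Within GGACA alone and without the chosen sites, 0 of 3 nearer sites and 5 of 7 farther ones were higher by 0.10 in EB, and 0 of 3 and 7 of 8 in ESC. Over all matched GGACA sites the shares were 23.0% and 63.0% in EB, and 39.5% and 74.6% in ESC. The deposited class moved with distance too: all 7 nearer sites with an ESC difference were low or intermediate, whereas 9 of the 11 farther ones without the chosen sites were high or highest. No share of the classes over all matched sites was counted, and the part of the class in the split was not tested.

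**Figure D5:**
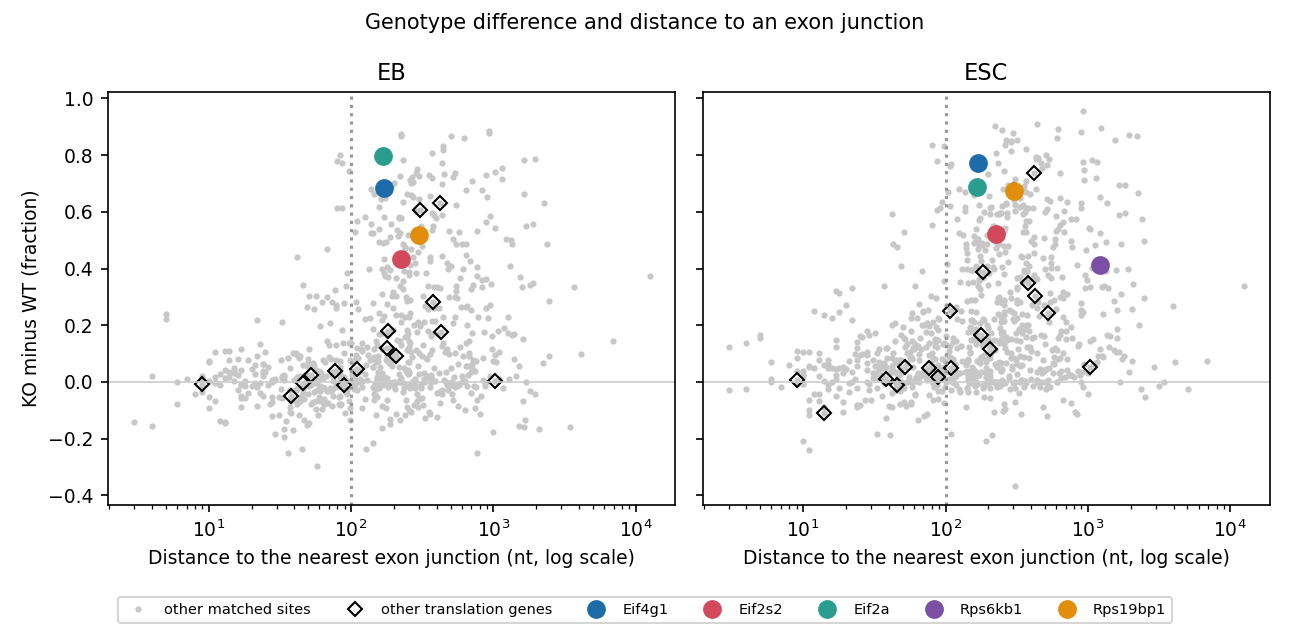
KO minus WT difference (fraction) against the distance to the nearest exon junction in nt on a log axis, for EB on the left and ESC on the right, with members coloured, other translation genes as open diamonds and a dotted line at 100 nt. The members lie between 167 and 1219 nt, and every diamond left of the line lies below 0.10.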

How the data were processed

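All values come from 1 table that covers the 4 groups. Per the file headers, the authors deposited 1 cleavage efficiency for each group at every site, and its values lie between 0 and 1 as a fraction does. Each site also has a position, a strand, a sequence, a transcript position and a class. The submitters' processing notes name STAR 2.5.3a and bedtools 2.26.0 and mm9, without saying what each was used for. No source used here says how reads were counted or whether a column pools or averages libraries. 0 value columns belonged to no group.

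The 5 genes and the 4 lists were chosen with earlier results of these data known. A site was given a gene where its 11 bases (measured A at base 6) occurred in a GENCODE M21 transcript on the same chromosome and strand, no more than 100 nt from the transcript position in the table and 10 Mb from its genome position. Of 1626 sites, 1473 matched a single gene, and 1423 of these shared their offset between builds with a site of another gene among 3 neighbours on either side. The opposite strand matched 54 sites. The 5 members matched at 0 to 29 nt from the deposited position and all passed the neighbour check. No table paired UCSC identifiers with genes here, so that route of the rule was not used. Regions, exons and distances are those of the best matching transcript.

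Differences are between deposited fractions, unfiltered and with no pseudocount, and were counted at 0.10. With 1 value per group the planned tests over libraries could not be run, so no p-value, SD or interval is given. Motifs were searched on the sense strand of the transcripts alone, and GGACA and AGACA are counted within ACA. The named list sites followed the rule that each site reaching 0.10, or highest or lowest of its list, is named. The sites of Eif3c, Eif3l, Eif4ebp2, Eif5, Pelo, Hbs1l and Rpl4 were added after their values were seen. The subtraction and the count at 0.10 were tested on simulated data with fixed differences and no noise. Python 3.11.15 and pandas 2.3.3 were used. Alternatives were the logit of the fraction (kept between 0.01 and 0.99), column medians subtracted, a size of 0.20, other match limits and only complete sites.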

Additional observations from a re-analysis of the deposited data

How the results depend on the processing

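On the logit scale all KO minus WT differences of the members kept their direction. Subtracting column medians moved the median over the member sites to 0.335 in EB, against 0.602 as deposited, and to 0.301 in ESC, against 0.675. The EB median covers 4 sites, without Rps6kb1, and the ESC median 5. The same subtraction moved the translation list counts of 0.10 to 6 of 19 in EB and 6 of 23 in ESC. It takes a constant from every site. Requiring a match at exactly the deposited position left 4 of 6 sites in EB and 4 of 6 in ESC. Leaving out the member sites, an alternative chosen after seeing the data, gave 6 of 15 and 9 of 18. Over all sites without the members the shares were 41.6% in EB and 55.2% in ESC. A size of 0.20 gave 7 of 19 in EB and 12 of 23 in ESC, beside 31.5% and 39.7% of the table. Complete sites gave 10 of 19 and 11 of 19, and the neighbour check, also added later, 9 of 18 and 13 of 22. No share over all sites was counted for the centred, exact-position, complete-site and neighbour-check settings, so those counts are not set against the table. Means of the list differences were 0.240 in EB and 0.279 in ESC. A match limit of 20 nt kept 4 members, without Eif2s2, and one of 500 nt kept 5. The median over members of EB minus ESC was 0.147 in WT, 0.00199 in KO and −0.0864 for the KO effect. With column medians subtracted these were 0.0503, 0.0127 and 0.0206. The WT median covers 5 sites and the other medians cover 4, without Rps6kb1, so they are not over the same sites. No paired analysis was possible because the table holds 1 column per group and its columns carry no replicate numbers. For the same reason no library could be left out. The depth behind each value is unknown, so the precision of a single efficiency cannot be stated.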
